A study of Mus musculus with 12 samples.

Results

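The comparison of the LA group with the normal diet (ND) group covers liver RNA-seq of 6 of the 12 mice of the series, 3 mice fed a high-fat diet containing 1% linoleic acid (LA) and 3 mice fed a normal diet. Genes entered it by 1 rule, a mean of at least 1 FPKM (fragments adjusted for the length of the gene and the size of the library) over the columns of all 12 mice, which 11083 of the 54532 listed genes met. The series holds mice on a high-fat diet given HYA, a hydroxy fatty acid that gut bacteria make from linoleic acid, or LA itself. All animals were male C57BL/6J mice, 5 weeks old at the start and kept on their diets for 26 weeks. The ND group received the CE-2 diet, the control group the high-fat diet HFD32, and the LA and HYA groups the same high-fat diet with 1% of the respective fatty acid. In each group 3 mice were sequenced, which the study describes as independent samples. The groups of the study held more mice, and how the 3 were picked is not given. Since the ND mice received neither the high-fat diet nor added LA, the effects of diet and of LA cannot be told apart between LA and ND. The control and HYA mice enter the 1 FPKM rule and the estimate of spread, which all 12 mice share. Otherwise they are used below mainly for direct comparisons with LA.

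Hepatocytes store surplus fatty acids as triglyceride in lipid droplets, oxidise them in mitochondria and peroxisomes, or export them in lipoproteins, and they also secrete most plasma proteins and carry out the urea cycle. In mice, many hepatocyte genes differ between males and females because the pituitary releases growth hormone in pulses in males and more evenly in females, a pattern read by the transcription factor STAT5. Long feeding with a high-fat diet is known to load hepatocytes with lipid, to draw macrophages into the liver and to activate stellate cells, the main source of collagen there.

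Fragments on genes, recovered from the FPKM values, came to 18443002, 17169064 and 19595277 in ND mice 1 to 3 and to 20329411, 20267932 and 20950700 in LA mice 1 to 3. The ranges of the groups lay apart, with every LA mouse more deeply sequenced than every ND mouse. A gene of 2 kb with 3 fragments would be listed at 0.0673 to 0.0944 FPKM in these 6 mice. The 10 most abundant genes took 16.7% to 17.4% of the fragments in ND mice and 17.1% to 18.5% in LA mice.

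The tissue label was checked with 20 defining hepatocyte genes, all of which were detected and tested. Their summed level was 50680.0, 49934 and 52017 FPKM in ND mice and 35967, 36856 and 35951 FPKM in LA mice. Every mouse was far above its sums for the lists of other cell types, and each LA mouse was lower than each ND mouse. On the TPM scale the mean sum was 121300 in ND and 101400 in LA mice, beside 50880 and 36260 FPKM on the deposited scale, so the difference is smaller there. Alb (albumin) was the most abundant member at 30137, 29044 and 28483 FPKM in ND and 21974, 21381 and 21043 FPKM in LA mice. By adjusted p alone, 14 of the 20 were lower and 1 was higher. In bulk tissue, fewer cells of a type and less RNA per cell cannot be told apart.

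Tested with limma on log2(FPKM + 1) with Benjamini-Hochberg adjustment, 236 genes (2.13% of those tested) were higher and 151 (1.36%) lower in LA than in ND at an adjusted p under 0.05 and a change over 2-fold. Without the fold threshold, 1600 genes (14.4%) were higher and 1845 (16.6%) lower. Of the 387 genes past both thresholds, 326 were protein-coding, 51 of the higher ones and 41 of the lower ones changed over 4-fold, and the lower genes included more abundant transcripts. A mean over 100 FPKM was reached by 59 of the 151 lower genes in ND and by 23 of the 236 higher genes in LA. The 3 LA values and the 3 ND values did not overlap in 2272 genes with LA higher (20.5%) and in 2938 with LA lower (26.5%). Most of the 12 mice behind the 1 FPKM rule were on the high-fat diet, so the rule admits genes that are high only on that diet more readily than genes that are high only in ND. With the rule applied to the 6 LA and ND mice, an alternative chosen after seeing the data, 11047 genes were tested, and 232 were higher and 157 lower past both thresholds. Without a filter, 26045 genes were tested, of which 7.18% were higher and 6.37% lower by adjusted p alone, and counts without the filter below stand beside these shares. In number, 3529 genes passed without the filter and 3445 with it, so the added low genes dilute the shares. A list of well-expressed genes exceeds them more easily for that reason.

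How the libraries are scaled sets part of this balance. The ratio of the fragments on genes to the library total that the FPKM values imply was 1.05, 1.08 and 1.09 in ND mice and 0.954, 0.95 and 0.94 in LA mice, so the groups were not scaled alike. The methods of the study name TPM, a unit in which every library has the same sum, while the deposited values are FPKM. The values were therefore also rescaled to TPM and tested on the same 11083 genes, and tested with the fragments on genes as library size (11125 genes), both alternatives chosen after seeing the data. The median log2 change of all tested genes, -0.04 on the deposited scale, was 0.21 higher on the TPM scale and 0.14 higher with fragments on genes. The higher and lower genes past both thresholds then numbered 496 and 120 (80.5% higher, TPM) or 303 and 114 (72.7%), beside 236 and 151 (61%) on the deposited scale. With TPM also used for the filter, 13588 genes were tested and 625 were higher and 142 lower. Libraries were also scaled with size factors taken from the median ratio over genes, with 11069 genes tested. This scaling gave 235 higher and 153 lower genes past both thresholds (60.6% higher), close to the deposited scale. Its median log2 change was -0.04, the same as on the deposited scale, and its shares by adjusted p alone were 14.4% higher and 16.7% lower. By adjusted p alone, 32.6% of the 11083 genes were higher and 5.58% lower on the TPM scale. Counts for a list are therefore read against 14.4% higher and 16.6% lower on the deposited scale and against 32.6% and 5.58% on the TPM scale, where the same 11083 genes are meant below, and median changes of lists are given as their distance from the median of all tested genes.

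**Figure D1:**
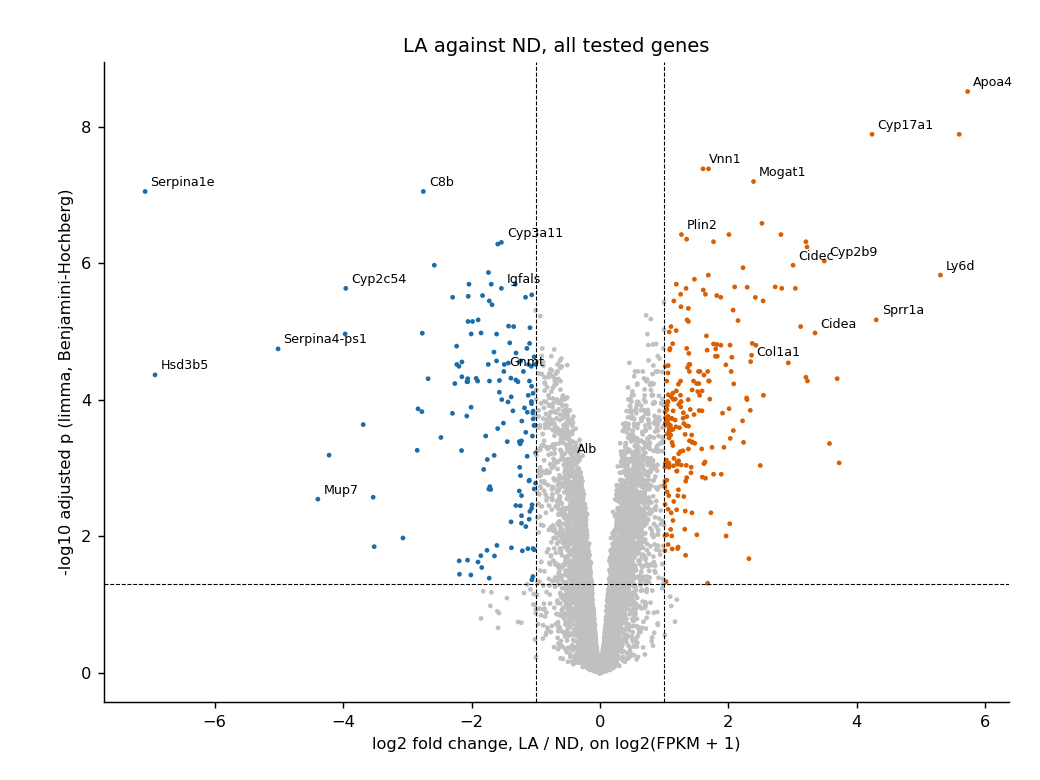
Each point is 1 of the 11083 tested genes, with its log2 change between LA and ND mice (3 per group, on log2(FPKM + 1)) on the x axis and the negative log10 of its adjusted p on the y axis. Dashed lines mark the thresholds, with the 236 genes past both on the right in orange and the 151 on the left in blue.

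Apoa4 (ENSMUSG00000032080, chr9:46240696-46243459), which encodes an apolipoprotein of triglyceride-rich particles, had the largest increase of all tested genes. Its level was 55.3, 53.1 and 62.1 FPKM in ND mice and 3488, 3179 and 2578 FPKM in LA mice. All 3 LA mice lay far above the ND range, with no overlap. The log2 change was 5.73 ± 0.14 (SE, n = 3 per group, limma, Benjamini-Hochberg adjusted p = 3.04e-09), a 54.2-fold difference of means. The antisense gene Gm10680 overlaps Apoa4, is named for that overlap, and had the second largest increase of all tested genes (5.60 on the log2 scale). It was measured at 4.78, 3.41 and 3.33 FPKM in ND and 270.2, 248 and 184 FPKM in LA mice. Whether the counting used strand is not given in the sources used here, so fragments of the 2 genes cannot be told apart.

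Ly6d, a surface protein of the Ly6 family, was listed at 1.91, 1.18 and 0.823 FPKM in ND mice and 115, 83.3 and 71.7 FPKM in LA mice. Every LA mouse stood above every ND mouse, and LA mouse 1 was the highest. Its log2 change was 5.30 ± 0.31 (limma, Benjamini-Hochberg adjusted p = 1.49e-06). Sprr1a, a small proline-rich protein of stressed epithelia, was nearly absent from ND mice at 0.141, 0.0781 and 0 FPKM (at most 2 fragments in a mouse) against 22, 17.6 and 21.1 FPKM in LA mice. The groups were far apart, and the log2 change of 4.30 on log2(FPKM + 1) understates a difference that starts near 0. Mir6358, a microRNA gene, was at 0, 0 and 0 FPKM in ND mice and at 21.4, 8.82 and 8.88 FPKM in LA mice. No ND mouse had a fragment on it and each LA mouse did. Taking 3 fragments per library as the floor, its mean was at least 6.96-fold higher in LA.

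Cyp17a1, a steroid hydroxylase, was measured at 1.76, 1.63 and 1.62 FPKM in ND and 48.3, 51.5 and 48.4 FPKM in LA mice. The mice of a group hardly differed, and the groups were 29.6-fold apart (log2 change 4.24 ± 0.12, limma, Benjamini-Hochberg adjusted p = 1.29e-08). The G protein regulator Rgs16 reached 32.97, 44.6 and 64.2 FPKM in LA mice from 0.681, 1.75 and 8.44 FPKM in ND mice. ND mouse 3 was well above the other ND mice but still below all LA mice, and the log2 change of 3.73 ± 0.58 carries a wide error. Among cytochrome P450 genes, Cyp2a4 was at 1.08, 0.290 and 0.416 FPKM in ND and 9.07, 22.2 and 26.5 FPKM in LA mice, with LA mouse 1 the lowest of its group and no overlap. Cyp2b9 was at 6.10, 10.1 and 8.19 FPKM in ND and 95.2, 101 and 104 FPKM in LA mice. Here the LA mice lay close together, all above ND.

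Among the largest decreases, Serpina1e, a member of the alpha-1-antitrypsin family, was at 3056, 3006 and 3759.6 FPKM in ND and 23.4, 29.4 and 17.7 FPKM in LA mice. All LA mice were far below all ND mice, 139-fold by the means, with a log2 change of -7.08 ± 0.28 (limma, Benjamini-Hochberg adjusted p = 8.88e-08). Hsd3b5, a ketosteroid reductase, was at 139, 162 and 182 FPKM in ND and 0.182, 0.363 and 0.434 FPKM in LA mice. All ND mice were high and all LA mice were below 1 FPKM, with a log2 change of -6.93 ± 0.67. The pseudogene Serpina4-ps1 was at 206, 136 and 72.5 FPKM in ND and 2.95, 3.75 and 2.30 FPKM in LA mice. Its ND values were spread over nearly 3-fold, yet the lowest remained far above all LA mice.

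**Figure D2:**
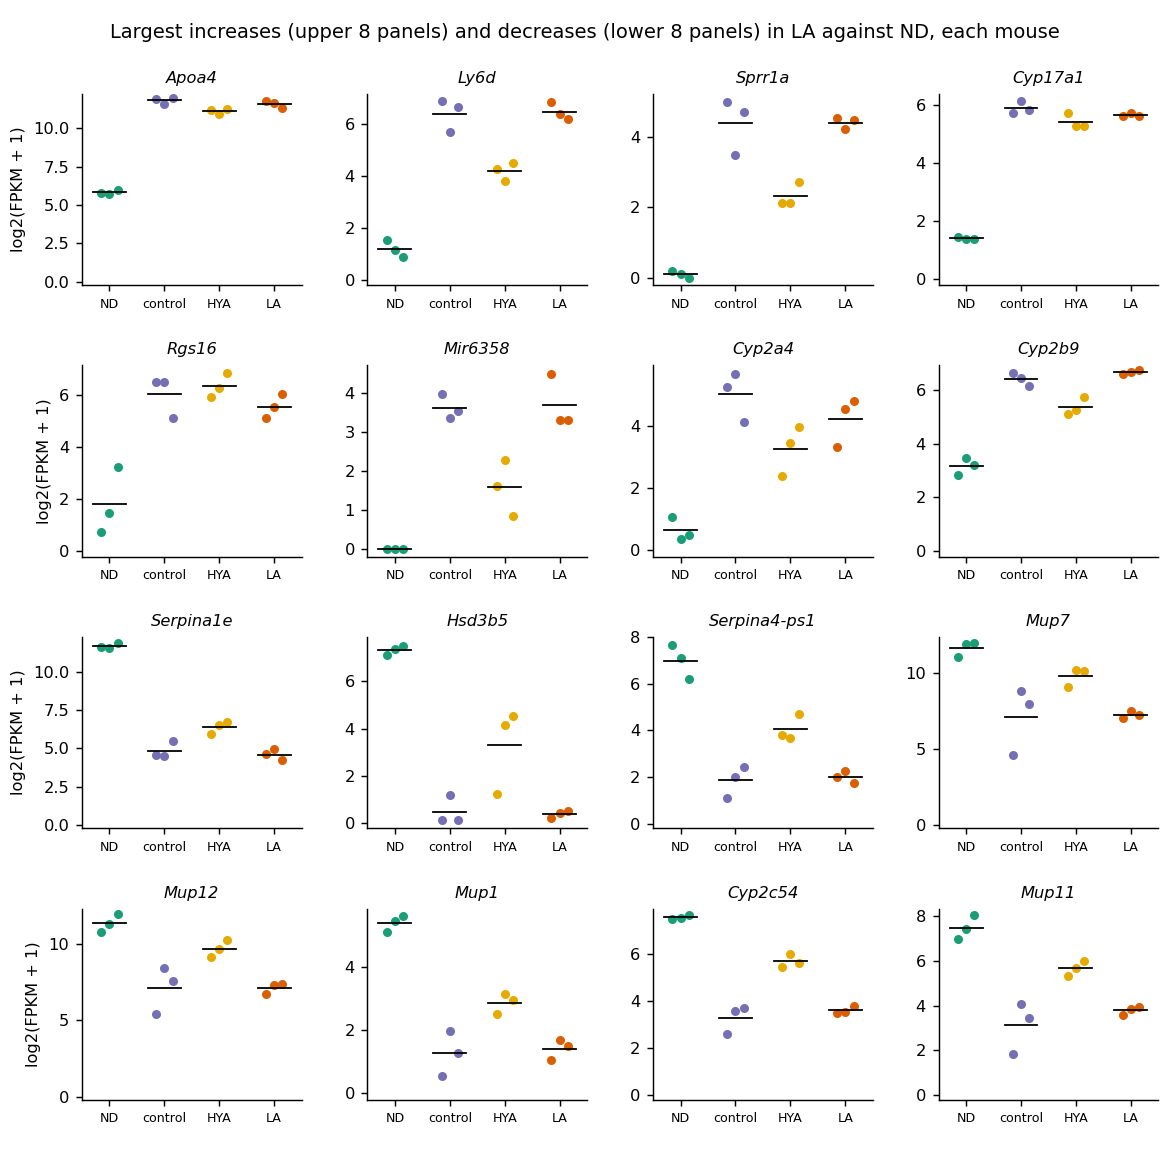
Level of 16 genes in each of the 12 mice, as log2(FPKM + 1), for the 8 largest increases and the 8 largest decreases between LA and ND once genes known only by a clone or model number are set aside, as Gm10680 is. Dots are mice and lines are group means of 3 mice. The LA and ND mice do not overlap in any panel because the genes were chosen so, and the control mice are shown beside them.

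Major urinary proteins are small lipid-binding carriers of pheromones, secreted by the male liver from a gene cluster on chromosome 4. Mup7 was at 2100.3, 3804 and 4097 FPKM in ND and 129, 180.2 and 148 FPKM in LA mice, and all ND mice were above all LA mice. Mup11 was at 125, 171 and 258 FPKM in ND and 10.95, 13.6 and 14.2 FPKM in LA mice, again without overlap. Mup12 was at 1760.5, 2504 and 4047 FPKM in ND mice and 106, 155 and 165 FPKM in LA mice, and Mup1 was at 33.2, 42.96 and 47.2 FPKM in ND and 1.07, 2.22 and 1.84 FPKM in LA mice. The log2 changes of these genes lay between -4.39 (Mup7) and -3.69 (Mup11). Mup16 was at 1352, 1598 and 1304 FPKM in ND and 15.4, 295 and 388 FPKM in LA mice, where LA mouse 1 stood far below the other LA mice. Mup20, in contrast, was at 1384, 1546 and 1842 FPKM in ND and 1967, 1441 and 1507 FPKM in LA mice with overlapping groups, and it did not pass the test. Mup16 and Mup20 were chosen after their values were seen. Since these genes are near-identical copies, the division of fragments among them is uncertain.

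To show how alike the copies are, the RefSeq promoter windows of Mup7 (chr4:60070426-60070725, minus strand) and Mup11 (chr4:60662346-60662645, minus strand) of build GRCm38.p6 are given, 250 bases before to 50 after the start. Capitals mark the longest run of letters shared by the 2 windows, which is 66 bases long.
Mup7: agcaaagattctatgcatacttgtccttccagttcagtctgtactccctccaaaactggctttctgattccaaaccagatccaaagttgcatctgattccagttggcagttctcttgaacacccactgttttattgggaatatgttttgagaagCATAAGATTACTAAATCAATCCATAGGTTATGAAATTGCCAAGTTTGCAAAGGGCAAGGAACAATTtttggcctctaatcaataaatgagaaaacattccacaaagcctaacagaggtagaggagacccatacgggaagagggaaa
Mup11: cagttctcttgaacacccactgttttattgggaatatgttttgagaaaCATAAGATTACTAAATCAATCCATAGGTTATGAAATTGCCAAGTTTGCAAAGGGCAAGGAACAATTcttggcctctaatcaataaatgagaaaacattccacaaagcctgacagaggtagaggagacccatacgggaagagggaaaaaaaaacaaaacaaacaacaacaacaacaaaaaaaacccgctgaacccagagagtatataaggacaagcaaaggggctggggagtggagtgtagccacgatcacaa
The shared run lies at a different distance from the start in each window.

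Of 37 tested male-biased genes, 30 fell, 28 of them by over 2-fold, and 0 rose, with a median -1.97 relative to all tested genes. Many members of this list are Mup genes. Since the division of fragments among these copies is uncertain, they are not separate observations, and they weigh on the counts and the median. Of 19 tested female-biased genes, 12 rose (9 over 2-fold) and 4 fell, with a median 0.94 relative to all tested genes. Only 19 of 34 female-biased genes passed the filter, and without it they had 14 of 31 higher and 4 lower (median 0.26), beside 0 of 38 higher and 28 lower (median -1.93) for male-biased genes. On the TPM scale 14 and 4 female-biased and 0 and 30 male-biased genes were higher and lower. C8b, a chain of the complement membrane attack complex, was at 102, 102 and 119.8 FPKM in ND and 14.6, 15.3 and 15.5 FPKM in LA mice. The LA mice lay within 1 FPKM of each other and far below ND (log2 change -2.75 ± 0.11, limma, Benjamini-Hochberg adjusted p = 8.88e-08). Susd4, a complement regulator, was at 12.4, 12.5 and 13.4 FPKM in ND and 2.03, 2.05 and 3.06 FPKM in LA mice, and Cyp2d9, a steroid hydroxylase, was at 557, 649 and 632 FPKM in ND and 209, 167 and 191 FPKM in LA mice. Both were lower in every LA mouse.

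On the female-biased side, Abcd2, a peroxisomal transporter of very long chain fatty acids, was at 2.80, 2.64 and 2.72 FPKM in ND and 10.1, 10.9 and 12.1 FPKM in LA mice. The groups were tight and apart, with a log2 change of 1.69 ± 0.0597 (limma, Benjamini-Hochberg adjusted p = 4.14e-08). The organic anion transporter family member Slc22a27 was at 0.661, 1.11 and 0.827 FPKM in ND and 8.78, 11.2 and 9.21 FPKM in LA mice, without overlap. Lifr, Ttc39c, Prlr and Cyp2b10 were the 4 female-biased members that fell, named after their values were seen.

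Genes of the growth hormone and STAT5 axis had 3 of 17 higher and 6 lower (3 and 5 on the TPM scale). The 3 higher genes became 1 without LA mouse 2, without ND mouse 1 or without the filter. Igfals, which holds insulin-like growth factors in the circulation, was at 65.5, 62.1 and 64.1 FPKM in ND and 20.1, 23.4 and 20.8 FPKM in LA mice. The LA mice were 2.98-fold lower by the means and did not overlap ND (log2 change -1.53 ± 0.0961, limma, Benjamini-Hochberg adjusted p = 2.33e-06). Igf1, the main growth factor under growth hormone control, was at 52.2, 59.5 and 51.2 FPKM in ND and 29.3, 33.1 and 34.05 FPKM in LA mice. The growth hormone receptor gene Ghr was at 77.6, 84.4 and 81.2 FPKM in ND and 46.5, 50.5 and 54.2 FPKM in LA mice. Both fell, with each LA mouse below each ND mouse. Igfbp3, a carrier of insulin-like growth factors, rose from 3.82, 4.55 and 5.74 FPKM to 9.997, 8.81 and 9.79 FPKM.

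Igfals is shown because its RefSeq promoter window (chr17:24877594-24877893, GRCm38.p6, plus strand, 1 of 3 windows of the gene) holds the letters TTCNNNGAA, the core that STAT proteins are known to bind, marked by capitals.
Igfals: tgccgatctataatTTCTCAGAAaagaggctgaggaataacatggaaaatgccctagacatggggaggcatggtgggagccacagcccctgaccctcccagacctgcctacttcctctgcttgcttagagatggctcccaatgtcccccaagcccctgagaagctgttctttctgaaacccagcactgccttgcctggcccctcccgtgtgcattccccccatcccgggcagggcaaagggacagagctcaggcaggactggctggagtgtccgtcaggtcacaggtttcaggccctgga
The same letters, which read the same on both strands, occurred in 8.3% of all 32851 windows of 300 bases, in 6.69% of 10499 windows of tested genes, in 5.66% of 212 windows of genes past both thresholds and higher, and in 7.28% of 151 windows of lower genes. The match is a description of letters and not a binding site.

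Lipid droplet genes leaned upward. Of 20 tested genes of the droplet coat and lipolysis, 12 rose and 0 fell, and their median was 0.65 relative to all tested genes. Plin2, which coats the droplets of hepatocytes, was at 132, 154 and 142 FPKM in ND and 348, 339.5 and 348 FPKM in LA mice. The LA mice were 2.42-fold higher by the means and varied little among themselves (log2 change 1.27 ± 0.0600, limma, Benjamini-Hochberg adjusted p = 3.79e-07). Cidec, which fuses small droplets into large ones, was at 8.16, 10.6 and 6.90 FPKM in ND and 78.2, 68.4 and 78.3 FPKM in LA mice. Its relative Cidea was at 3.96, 3.08 and 4.54 FPKM in ND and 69.1, 32.9 and 48.9 FPKM in LA mice. Both stood apart from ND in every LA mouse, and Cidea varied more among LA mice. The log2 changes were 3.01 ± 0.17 for Cidec and 3.35 ± 0.26 for Cidea. Pnpla3, a lipase of the droplet surface that overlaps the microRNA gene Mir6392, was at 0.331, 1.22 and 0.647 FPKM in ND and 20.1, 12.03 and 10.8 FPKM in LA mice, highest in LA mouse 1.

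Uptake and esterification of fatty acids gave 14 higher and 4 lower of 24 tested genes, with a median 0.46 relative to all tested genes. Cd36, a fatty acid receptor also present on sinusoidal endothelium, was at 29.4, 27.2 and 23.5 FPKM in ND and 96.5, 92.1 and 90.8 FPKM in LA mice. Mogat1, an acyltransferase that builds diglyceride, was at 1.13, 1.25 and 1.07 FPKM in ND and 10.7, 9.75 and 10.4 FPKM in LA mice. For both genes the LA mice agreed closely and exceeded all ND mice, with log2 changes of 1.77 ± 0.0874 (Cd36) and 2.39 ± 0.0895 (Mogat1). The fatty acid-binding protein gene Fabp2 and the lipoprotein receptor gene Vldlr rose too, by 1.38 and 0.80 on the log2 scale.

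In de novo lipogenesis, 10 of 17 tested genes rose and 2 fell (median 0.83 relative to all tested genes). Fasn, fatty acid synthase, was at 121, 182 and 101 FPKM in ND and 358, 299 and 308 FPKM in LA mice. Acaca, which makes malonyl-CoA, was at 10.2, 10.9 and 10.4 FPKM in ND and 24.9, 19.8 and 20.4 FPKM in LA mice, and the desaturase gene Scd1 was at 3899, 4549 and 3421 FPKM in ND and 8521, 6916 and 7012 FPKM in LA mice. In each of these genes LA mouse 1 was the highest and the groups did not overlap. The log2 changes were 1.29 ± 0.19 for Fasn, 0.97 ± 0.0933 for Acaca and 0.92 ± 0.11 for Scd1. The malic enzyme gene Me1 rose by 1.09 and Acacb, the mitochondrial relative of Acaca, by 1.15. Mlxipl, the carbohydrate-responsive transcription factor, moved the other way, from 75.8, 87.2 and 86.9 FPKM in ND to 47.4, 46.997 and 41.9 FPKM in LA mice. Srebf1, the sterol-regulated factor of lipogenesis, was at 129.8, 147 and 107 FPKM in ND and 88.7, 102 and 111 FPKM in LA mice. Its groups overlapped and it did not pass (log2 change -0.34 ± 0.26, limma, Benjamini-Hochberg adjusted p = 0.37).

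Linoleic acid is lengthened and desaturated to longer polyunsaturated fatty acids by dedicated enzymes. In this list 7 of 13 tested genes rose and 2 fell, with a median 0.30 relative to all tested genes. Without the filter 8 of 14 rose and 1 fell (median 0.47). With any 1 LA or ND mouse left out, 1 of the 13 fell. Fads2, which takes the initial desaturation step, was at 215, 235 and 223 FPKM in ND and 831, 862 and 1074 FPKM in LA mice. Fads1, the desaturase later in the pathway, was at 127, 134 and 131 FPKM in ND and 334, 366 and 393 FPKM in LA mice. Elovl5, an elongase between them, was at 144, 173 and 157 FPKM in ND and 646, 612 and 504 FPKM in LA mice. Each LA mouse exceeded each ND mouse in all 3 genes, and the log2 changes were 2.03 ± 0.17, 1.47 ± 0.0865 and 1.88 ± 0.12 in that order. Elovl2, which extends the longer products, rose by 1.08. Among enzymes that turn polyunsaturated fatty acids into eicosanoids and other oxylipins, 1 of 22 tested genes rose and 6 fell on the deposited scale, and 3 rose and 3 fell on the TPM scale, with a median -0.09 relative to all tested genes on both scales. The P450 gene Cyp4f14 was at 123, 132 and 140.3 FPKM in ND and 45.9, 50.9 and 48.5 FPKM in LA mice, with all LA mice below ND. Cyp4f13, Cyp4f15 and the epoxide hydrolase gene Ephx2 fell by smaller amounts, with log2 changes of -0.71, -0.81 and -0.36.

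Fatty acid oxidation and ketogenesis also leaned upward, with 20 of 37 genes higher, 2 lower and a median 0.32 relative to all tested genes. Vnn1, a pantetheinase known as a target of PPAR-alpha, was at 21.9, 24.2 and 22.3 FPKM in ND and 70.4, 69.003 and 74.7 FPKM in LA mice. Its groups were narrow and apart (log2 change 1.61 ± 0.0556, limma, Benjamini-Hochberg adjusted p = 4.14e-08). Cyp4a31, a fatty acid hydroxylase, was at 0.953, 0.803 and 0.998 FPKM in ND and 4.02, 3.495 and 3.25 FPKM in LA mice. Crat, carnitine acetyltransferase, rose by 1.02 and Hadhb, a chain of the mitochondrial trifunctional protein, by 0.46. In cholesterol synthesis and uptake 10 of 24 genes rose and 1 fell (16 and 0 on the TPM scale), with a median 0.41 relative to all tested genes. The median log2 change of this list, 0.37 with all mice, was 0.23 without LA mouse 3. Sqle, squalene epoxidase, was at 2.99, 4.12 and 3.70 FPKM in ND and 10.6, 7.76 and 11.8 FPKM in LA mice, with no overlap. Dhcr7, which acts late in the pathway, rose by 0.87 and Fdps, which makes farnesyl diphosphate, by 0.73.

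Apolipoproteins and lipoprotein handling had 4 of 26 genes higher and 10 lower, against 6 and 7 on the TPM scale, so that no direction is drawn for the list. Apart from Apoa4, the members with the lowest p fell. Abca1, the cholesterol exporter, was at 36.4, 37.5 and 32.4 FPKM in ND and 23.2, 21.99 and 23.2 FPKM in LA mice, and Lipc, hepatic lipase, was at 78.7, 78.7 and 91.6 FPKM in ND and 49.7, 53.7 and 42.6 FPKM in LA mice. Neither gene had overlapping groups. The lipoprotein receptor gene Lrp1 had a log2 change of -0.52 ± 0.0611.

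Bile acid synthesis and transport leaned downward, with 3 of 28 genes higher, 15 lower and a median -0.47 relative to all tested genes. Cyp2c70, which makes the muricholic acids of mice, was at 238, 273 and 318 FPKM in ND and 71.8, 84.8 and 70.04 FPKM in LA mice. Cyp7b1, of the alternative synthesis route and also male-biased, was at 80.1, 107 and 115 FPKM in ND and 18.97, 27.1 and 24.2 FPKM in LA mice. Every LA mouse was below every ND mouse in both, with log2 changes of -1.85 ± 0.14 and -2.06 ± 0.20. Cyp7a1, the rate-limiting enzyme of the classic route, was at 24.1, 25.4 and 14.6 FPKM in ND and 7.53, 9.17 and 18.3 FPKM in LA mice, with overlapping groups, and did not pass. It was chosen after its values were seen. The phospholipid exporter gene Abcb4 rose by 0.64 and Atp8b1, a phospholipid flippase, changed by -0.51.

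Among Cyp2c and Cyp2a genes, 4 of 15 were higher and 9 lower (median -0.79 relative to all tested genes). Among Cyp2b, Cyp3a and Cyp1a genes with their regulators, 2 of 14 were higher and 8 lower (median -0.59). Cyp2c54 was at 177, 182 and 203 FPKM in ND and 10.2, 10.6 and 12.7 FPKM in LA mice, and Cyp2c29 was at 590.1, 582 and 549 FPKM in ND and 102, 128 and 121 FPKM in LA mice. Both fell in every LA mouse, with log2 changes of -3.96 ± 0.25 and -2.29 ± 0.15. Cyp3a11, the main drug-metabolising P450 of its family, was at 1006, 980.1 and 887 FPKM in ND and 353, 316 and 319.8 FPKM in LA mice (log2 change -1.53 ± 0.0765, limma, Benjamini-Hochberg adjusted p = 4.94e-07). Cyp3a59 changed by -1.10. Some relatives moved the other way, as Cyp2c38 rose by 1.19, Cyp2a22 by 2.07 and Cyp2b13 by 2.43. Sequence similarity within these families makes the division of fragments among members uncertain.

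Cyp3a11 and Cyp2c70 are shown because both fell and both RefSeq windows (chr5:145879805-145880104 and chr19:40187237-40187536, GRCm38.p6, minus strand for each) hold CAAAGTCCA, letters known from sites of the hepatocyte factor HNF4A, marked by capitals.
Cyp3a11: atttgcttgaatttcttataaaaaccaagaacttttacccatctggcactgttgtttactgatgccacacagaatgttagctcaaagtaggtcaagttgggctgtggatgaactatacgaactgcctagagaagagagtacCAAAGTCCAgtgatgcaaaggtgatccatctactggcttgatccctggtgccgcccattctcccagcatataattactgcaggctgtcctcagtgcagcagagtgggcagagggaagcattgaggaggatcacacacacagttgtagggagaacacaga
Cyp2c70: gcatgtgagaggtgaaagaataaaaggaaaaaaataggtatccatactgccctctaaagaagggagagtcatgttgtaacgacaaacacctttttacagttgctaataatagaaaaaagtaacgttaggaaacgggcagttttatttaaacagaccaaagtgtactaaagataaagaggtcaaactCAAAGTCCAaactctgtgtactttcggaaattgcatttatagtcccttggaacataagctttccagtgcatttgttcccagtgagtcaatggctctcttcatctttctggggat
On either strand these letters occurred in 0.475% of all windows, in 3 of 151 windows of lower genes (1.99%) and in 4 of 212 windows of higher genes (1.89%). Of the 6 motifs searched, each on both strands, the remaining ones were a PPAR direct repeat (AGGTCA, any base, AGGTCA; 0.0396% of all windows), an HNF1 site (GTTAAT, any base, ATTAA; 0.0609%), the sterol regulatory element TCACNCCAC (1.24%) and the antioxidant response element of NRF2 (TGAC and GCA, 3 bases apart; 3.04%). None of these letter patterns contains another. The PPAR repeat and the HNF1 site had no match among higher or lower genes, TCACNCCAC had 4 matching windows among higher and 3 among lower genes, and the antioxidant element had 6 and 20. The 20 windows belong to 7 genes, several of which have more than 1 window, so they are not 20 separate observations.

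Conjugating enzymes of the UGT and SULT families had 0 of 21 genes higher and 14 lower on the deposited scale and 4 and 9 on the TPM scale (median -0.36 relative to all tested genes on the deposited scale). Ugt2b1 was at 235, 278 and 257 FPKM in ND and 101, 118 and 117 FPKM in LA mice, without overlap. Ugt2a3, Ugt1a1 and Ugt2b35 had log2 changes of -1.12, -0.80 and -0.63, and Ugt1a1 shares exons with other genes of its locus. Glutathione transferases and targets of the oxidative stress factor NRF2 had 14 of 39 higher and 10 lower on the deposited scale and 20 and 5 on the TPM scale. Gstm3 was at 51.4, 50.998 and 47.3 FPKM in ND and 158, 192 and 188 FPKM in LA mice, all LA mice above ND. Gsta2 was at 68.96, 64.1 and 51.2 FPKM in ND and 8.65, 15.2 and 13.6 FPKM in LA mice, all LA mice below ND. The sulfiredoxin gene Srxn1 rose by 1.35 and Pgd, of the pentose phosphate pathway, by 0.99.

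Urea cycle and amino acid catabolism was among the lists with the most members lower. Of 36 tested genes 26 fell, 5 of them by over 2-fold, and 2 rose, and the median was -0.55 relative to all tested genes. On the TPM scale 21 fell and 2 rose. Cps1, the entry enzyme of the urea cycle, was at 889, 980.0 and 994 FPKM in ND and 278, 359 and 332 FPKM in LA mice. Gnmt, which consumes S-adenosylmethionine, was at 1544, 1780.0 and 1609 FPKM in ND and 540.2, 644 and 564 FPKM in LA mice. Hal, histidine ammonia-lyase, was at 105, 110.0 and 110.1 FPKM in ND and 30.4, 40.7 and 26.97 FPKM in LA mice. In each of the 3 genes all LA mice were far below all ND mice, with log2 changes of -1.57 ± 0.17, -1.50 ± 0.14 and -1.72 ± 0.17. Cth, which makes cysteine, changed by -1.38.

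Glucose metabolism and insulin response had 4 of 24 genes higher and 2 lower (7 and 1 on the TPM scale). Pgm1, phosphoglucomutase, rose by 0.63. Igfbp2, a secreted carrier of insulin-like growth factors, was at 202, 136 and 227 FPKM in ND and 62.7, 92.6 and 83.2 FPKM in LA mice. Subunits of the mitochondrial respiratory chain gave 0 higher and 11 lower of 70 on the deposited scale, but 25 higher and 0 lower on the TPM scale. Their median lay -0.06 and -0.03 from that of all tested genes on these scales, so the list stayed close to the middle of all genes on both, and no direction is drawn. The 11 lower subunits became 6 without LA mouse 1, without LA mouse 3 or without ND mouse 2. Ndufs7, of complex I, was at 41.6, 39.1 and 43.4 FPKM in ND and 32.4, 33.5 and 32.6 FPKM in LA mice.

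In the complement system 22 of 36 genes fell and 3 rose (median -0.38 relative to all tested genes), and in coagulation and fibrinolysis 20 of 31 fell and 5 rose (median -0.39). On the TPM scale 16 fell and 8 rose in the complement list, and 16 and 8 in the coagulation list. Without the filter, 20 of 36 fell and 9 rose in the coagulation list (median -0.32). C3, the central complement protein, was at 1585, 1454 and 1589 FPKM in ND and 871, 779 and 781 FPKM in LA mice. C8a, the partner of C8b, was at 218, 210.3 and 255 FPKM in ND and 117, 97.1 and 95.3 FPKM in LA mice. All LA mice were below all ND mice in both, and C1ra, a protease of the classical pathway, changed by -0.76. Plg, plasminogen, was at 595, 611 and 701 FPKM in ND and 386, 373 and 340.3 FPKM in LA mice, without overlap. Proc (protein C), Serpind1 (heparin cofactor) and Cpb2 (a fibrinolysis inhibitor) changed by -0.62, -0.58 and -0.51 on the log2 scale.

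Acute phase proteins went both ways, with 11 of 33 higher, 5 of them over 2-fold, and 16 lower (13 and 14 on the TPM scale). Mug1, a protease inhibitor of the macroglobulin family, was at 668, 714 and 821 FPKM in ND and 311, 305 and 271 FPKM in LA mice, and Ahsg (fetuin-A) was at 2418, 2282 and 2853 FPKM in ND and 1373, 1371 and 1326 FPKM in LA mice. All LA mice were below ND in both. Itih1 and Itih2, chains of inter-alpha-trypsin inhibitor, changed by -0.88 and -0.66. Serpina protease inhibitors had 3 of 16 genes higher and 8 lower (6 and 8 on the TPM scale). Besides Serpina1e, Serpina3k was at 3445, 3818 and 4196 FPKM in ND and 1294, 1268 and 1181 FPKM in LA mice, while Serpina7, which carries thyroid hormone, rose from 23.1, 21.6 and 24.3 FPKM to 103, 88.2 and 95.7 FPKM. The copies of Serpina1 and Serpina3 are close relatives, so their separation is uncertain. Among secreted hepatokines, 6 of 23 were higher and 7 lower, or 9 and 5 on the TPM scale, where the balance turns. Enho, which encodes adropin, was at 6.73, 5.01 and 6.66 FPKM in ND and 1.04, 1.07 and 0.884 FPKM in LA mice, and Fetub (fetuin-B) was at 194, 182 and 199 FPKM in ND and 89.2, 79.5 and 87.4 FPKM in LA mice. Every LA mouse was lower than every ND mouse in both.

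Of 26 tested genes of hepatocyte injury and dedifferentiation 23 rose, 15 of them over 2-fold, and 0 fell, with a median 1.72 relative to all tested genes. Without the filter the list had 22 of 32 higher and 0 lower (median 0.98). S100a11, a calcium-binding protein, was at 5.35, 4.31 and 4.90 FPKM in ND and 62.1, 50.2 and 47.6 FPKM in LA mice. Anxa2, a membrane-binding annexin, was at 4.16, 3.999 and 3.89 FPKM in ND and 40.6, 33.5 and 30.8 FPKM in LA mice. Both stood well apart in every mouse, with log2 changes of 3.21 ± 0.16 (limma, Benjamini-Hochberg adjusted p = 4.83e-07) and 2.83 ± 0.18 (adjusted p = 2.33e-06). Several of these genes are expressed by bile duct and immune cells as well, so the list is not specific to hepatocytes.

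**Figure D3:**
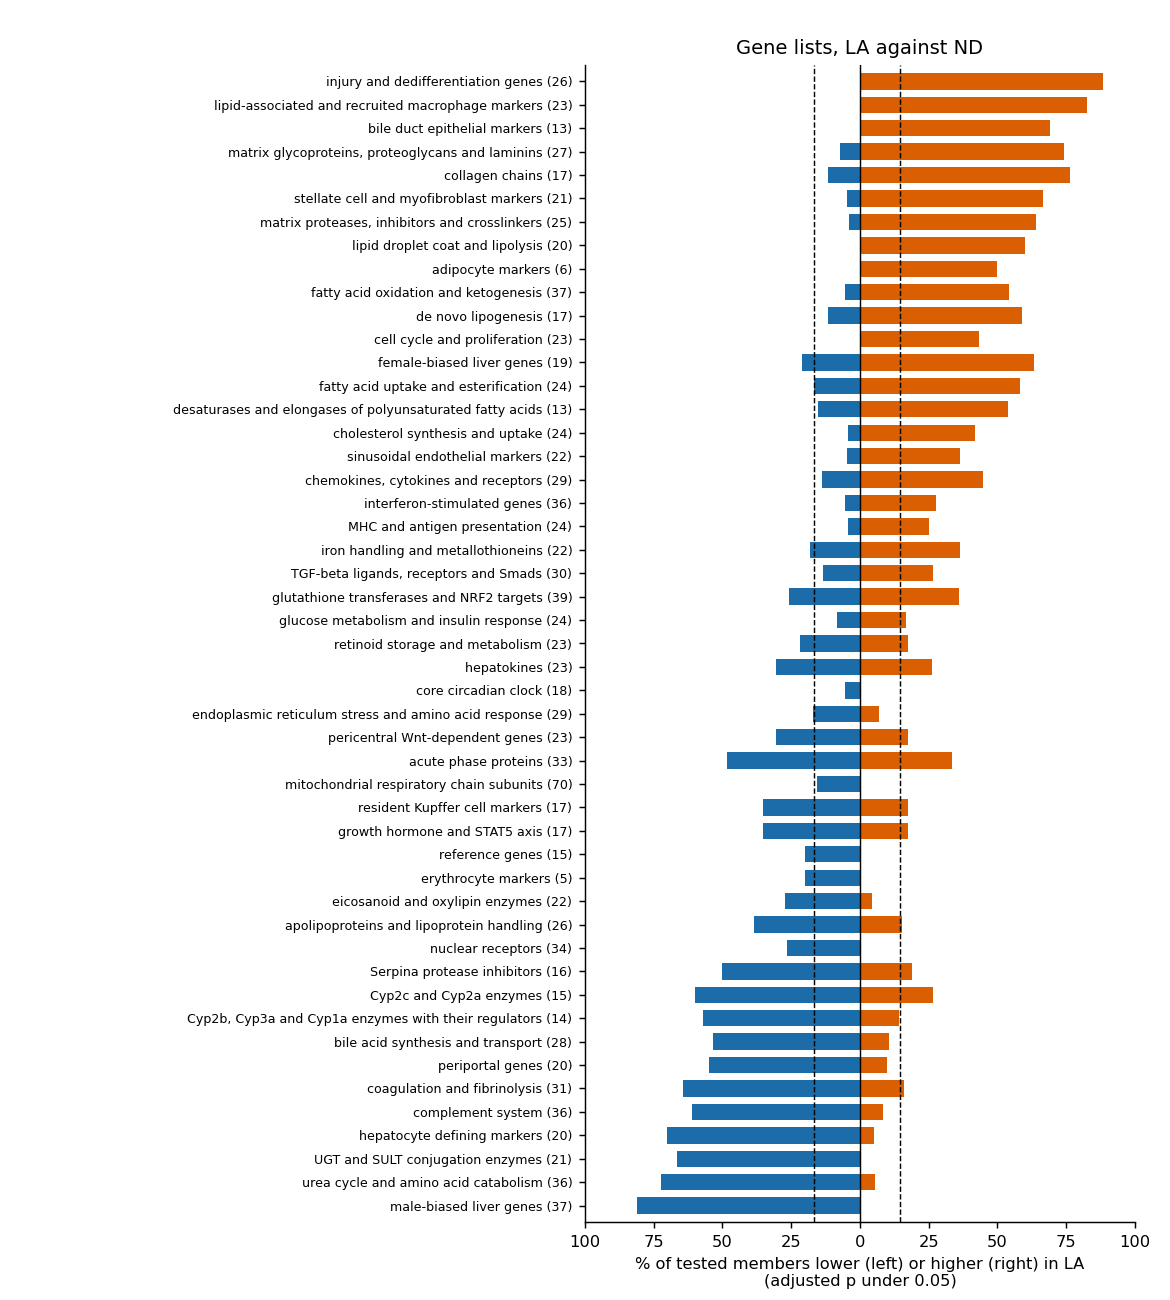
Share of tested members of each gene list (number tested in brackets) that were higher (right, orange) or lower (left, blue) in LA than in ND at an adjusted p under 0.05, for lists with at least 5 tested members. Dashed lines mark 14.4% higher and 16.6% lower in all tested genes. Injury genes lie at the top with 23 of 26 higher and male-biased genes at the bottom with 30 of 37 lower. Many of the male-biased genes are near-identical Mup copies. The top place depends on scale and filter, since on the TPM scale lipid-associated macrophage markers (22 of 23) and matrix glycoproteins (24 of 27) had higher shares, and without the filter the macrophage markers did (21 of 28). On the TPM scale, where 32.6% of all tested genes were higher and 5.58% lower, the balance of the counts turns for respiratory chain subunits, Kupffer cell markers, erythrocyte markers, hepatokines, retinoid genes, nuclear receptors, endoplasmic reticulum stress genes and reference genes, and it is even for eicosanoid enzymes, pericentral genes and the core circadian clock.

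Of 17 tested collagen chains 13 rose, 8 of them over 2-fold, and 2 fell (median 0.96 relative to all tested genes). Col1a1, of the main fibrillar collagen, was at 0.720, 0.883 and 1.33 FPKM in ND and 11.2, 8.04 and 7.98 FPKM in LA mice. Its partner chain Col1a2 was at 0.728, 0.917 and 0.936 FPKM in ND and 6.10, 4.07 and 4.74 FPKM in LA mice. Col3a1, another fibrillar collagen, was at 2.52, 2.86 and 3.51 FPKM in ND and 19.6, 14.8 and 15.5 FPKM in LA mice. In all 3 genes LA mouse 1 was the highest and no LA mouse came near the ND range. The log2 changes were 2.35 ± 0.21, 1.67 ± 0.14 and 2.15 ± 0.16 in that order (limma, Benjamini-Hochberg adjusted p = 2.76e-05, 1.87e-05 and 6.89e-06), and they understate the change of genes at such low ND levels. Col5a2 rose by 0.92. The 2 chains that fell were Col18a1 (-0.32) and Col27a1 (-0.65), named after their values were seen. Neither passed on the TPM scale, with fragments on genes as library size, with limma-voom, without a filter, with a replicate block, or without LA mouse 2 or any 1 of the ND mice.

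Matrix glycoproteins, proteoglycans and laminins had 20 of 27 genes higher and 2 lower (median 0.71 relative to all tested genes), and proteases, inhibitors and crosslinkers of the matrix had 16 of 25 higher and 1 lower (median 0.75). Only 27 of 50 and 25 of 40 listed genes passed the filter, which favours genes high on the high-fat diet. Without it, matrix glycoproteins had 30 of 50 higher and 2 lower (median 0.46), the proteases, inhibitors and crosslinkers 22 of 40 higher and 1 lower (median 0.36), and collagen chains 15 of 26 higher and 0 lower (median 0.49). Gas6, a ligand of TAM receptors, was at 19.7, 17.8 and 18.6 FPKM in ND and 65.2, 58.1 and 54.3 FPKM in LA mice. Sparc, a collagen-binding protein, was at 12.5, 11.6 and 14.3 FPKM in ND and 36.6, 28.9 and 30.5 FPKM in LA mice. Both were higher in every LA mouse. Vtn, vitronectin from hepatocytes, fell instead, from 1016, 1018 and 1122 FPKM to 633, 635 and 587 FPKM. Timp1, an inhibitor of matrix proteases, was at 0.128, 0 and 0 FPKM in ND and 1.69, 1.95 and 3.33 FPKM in LA mice, with at most 2 fragments in an ND mouse. All LA mice were above ND, and the log2 change of 1.64 on log2(FPKM + 1) understates a difference from near 0. The macrophage elastase gene Mmp12 was at 0.0865, 0.0348 and 0.0384 FPKM in ND and 2.14, 1.85 and 3.40 FPKM in LA mice. Timp2, Mmp2 and Adamts1 rose by 0.81, 0.83 and 1.14 on the log2 scale.

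Of 21 tested markers of stellate cells and myofibroblasts 14 rose and 1 fell (median 0.59 relative to all tested genes). The summed level of the 24 markers in the table was 96.1, 87.8 and 109.5 FPKM in ND and 192, 163 and 161 FPKM in LA mice, with no overlap and none of the markers at 0 throughout. The most abundant was Dcn (decorin) at 22.3, 19.04 and 24.8 FPKM in ND and 40.7, 35.99 and 37.5 FPKM in LA mice. Acta2, the smooth muscle actin of activated stellate cells, was at 0.991, 1.13 and 1.34 FPKM in ND and 5.005, 3.66 and 2.12 FPKM in LA mice. The LA mice were spread over more than 2-fold but all were above ND (log2 change 1.04 ± 0.19, limma, Benjamini-Hochberg adjusted p = 0.00222). Lum (lumican), the pericyte gene Rgs5 and Vim (vimentin) rose by 1.39, 1.17 and 1.06. The part of stellate cell number in the matrix result was not tested.

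Ligands, receptors and Smads of the TGF-beta family gave 8 higher and 4 lower of 30 tested genes (15 and 2 on the TPM scale). Tgfb1 was at 2.98, 2.09 and 2.60 FPKM in ND and 3.53, 3.49 and 3.96 FPKM in LA mice. The groups did not overlap and the log2 change was 0.40 ± 0.11 (limma, Benjamini-Hochberg adjusted p = 0.0171). Among activin chains, Inhbb rose by 0.83, while Inhbc and Inhba changed by -0.72 and -0.55. Tgfbi, a matrix protein induced by TGF-beta, was at 11.02, 9.03 and 13.5 FPKM in ND and 21.4, 17.2 and 22.9 FPKM in LA mice, all LA mice above ND.

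Of 23 tested markers of lipid-associated and recruited macrophages 19 rose and 0 fell (median 0.94 relative to all tested genes). Without the filter they had 21 of 28 higher and 0 lower (median 0.84). Their summed level was 721, 644 and 689 FPKM in ND and 1213, 1138 and 1178 FPKM in LA mice, led by Plin2, which hepatocytes also express. Cd63, a tetraspanin of late endosomes, was at 0.680, 0.479 and 0.620 FPKM in ND and 5.31, 3.96 and 4.75 FPKM in LA mice, and Ctsd, cathepsin D, was at 82.5, 88.4 and 85.1 FPKM in ND and 127, 119 and 125 FPKM in LA mice. Both were higher in every LA mouse.

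Resident Kupffer cell markers gave 3 higher and 6 lower of 17 on the deposited scale, and 5 higher and 3 lower on the TPM scale. Their summed level was 557, 385 and 472 FPKM in ND and 514, 494 and 497 FPKM in LA mice, so the groups overlapped on the deposited scale. On the TPM scale it was 1366.6, 911.79 and 1098.4 in ND and 1434, 1367.3 and 1409.8 in LA mice, where the lowest LA mouse was just above the highest ND mouse. Cd5l, the most abundant, was at 80.5, 48.4 and 61.2 FPKM in ND and 92.1, 89.4 and 95.4 FPKM in LA mice. Timd4, a phosphatidylserine receptor of long-lived Kupffer cells, was at 6.26, 3.998 and 5.56 FPKM in ND and 1.68, 1.79 and 2.21 FPKM in LA mice, and the scavenger receptor gene Cd163 was at 5.29, 3.75 and 4.89 FPKM in ND and 1.43, 1.93 and 2.66 FPKM in LA mice. Both fell, with no overlap of groups. Clec1b changed by 0.41 and the iron exporter gene Slc40a1 by -0.32.

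Among the other cell types, sinusoidal endothelial markers had 8 of 22 higher and 1 lower on the deposited scale and 17 and 0 on the TPM scale. Their summed level was 261, 215 and 254 FPKM in ND and 365, 350.0 and 359.5 FPKM in LA mice, led by Cd36. Plvap, of fenestrated endothelium, was at 20.6, 17.7 and 24.8 FPKM in ND and 50.3, 40.1 and 40.4 FPKM in LA mice, and Lyve1, a hyaluronan receptor, was at 1.36, 1.88 and 2.21 FPKM in ND and 7.34, 5.98 and 5.61 FPKM in LA mice. Both separated the groups, and Pecam1 rose by 0.43. Bile duct epithelial markers had 9 of 13 higher and 0 lower, while without the filter they had 9 of 20 higher and 0 lower (median 0.26) against 0.79 with it. They had a summed level of 772, 831 and 881 FPKM in ND and 1369, 1134 and 1188 FPKM in LA mice. Their most abundant member, Clu (clusterin), was at 418, 422 and 468 FPKM in ND and 464, 407 and 398 FPKM in LA mice, with overlapping groups and a log2 change of -0.04 that was 0.19 on the TPM scale. Spp1 (osteopontin) was at 15.96, 22.6 and 24.3 FPKM in ND and 128, 77.3 and 101 FPKM in LA mice, without overlap. Anxa5, Krt8 and Tm4sf4, which hepatocytes express too, rose by 1.88, 0.84 and 0.75.

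Lymphocyte markers were mostly below the 1 FPKM rule, with 3 of 25 tested, 2 of them higher, while without the filter they had 1 of 25 higher and 1 lower (median 0.03). Their sum was 20.48, 23.3 and 25.01 FPKM in ND and 37.4, 31.6 and 40.8 FPKM in LA mice, led by Ighm, the immunoglobulin heavy chain, and Ptprc (CD45) rose by 0.33. Neutrophil markers had 2 of 11 tested, neither past the test, and summed to 3.47, 3.39 and 2.54 FPKM in ND and 4.57, 5.26 and 5.72 FPKM in LA mice. S100a9, the most abundant, was at 1.20, 1.81 and 0.959 FPKM in ND and 1.98, 2.70 and 2.15 FPKM in LA mice. Of 10 adipocyte markers, 6 were tested and 3 rose, and without the filter 3 of 10 did (median 0.04). They summed to 42.5, 45.7 and 45.97 FPKM in ND and 188, 131 and 165 FPKM in LA mice, led by Cidec, and the 3 that rose were Cidec, Cidea and Fabp4, genes that fat-laden hepatocytes are also known to express. Of 8 erythrocyte markers, 5 were tested. They summed to 385, 280.4 and 322 FPKM in ND and 330.4, 417 and 587 FPKM in LA mice with overlap, led by Hbb-bs, and the 1 that fell was Alas2 (-1.07), which is also on the male-biased list, while 2 rose on the TPM scale, where the balance turns. Of 13 pancreatic acinar markers, 10 were at 0 in all ND and LA mice, and Cela1, the only one tested, was at 6.61, 10.6 and 11.3 FPKM in ND and 5.41, 4.37 and 4.45 FPKM in LA mice. The part of these cell types in the gene results was not tested.

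**Figure D4:**
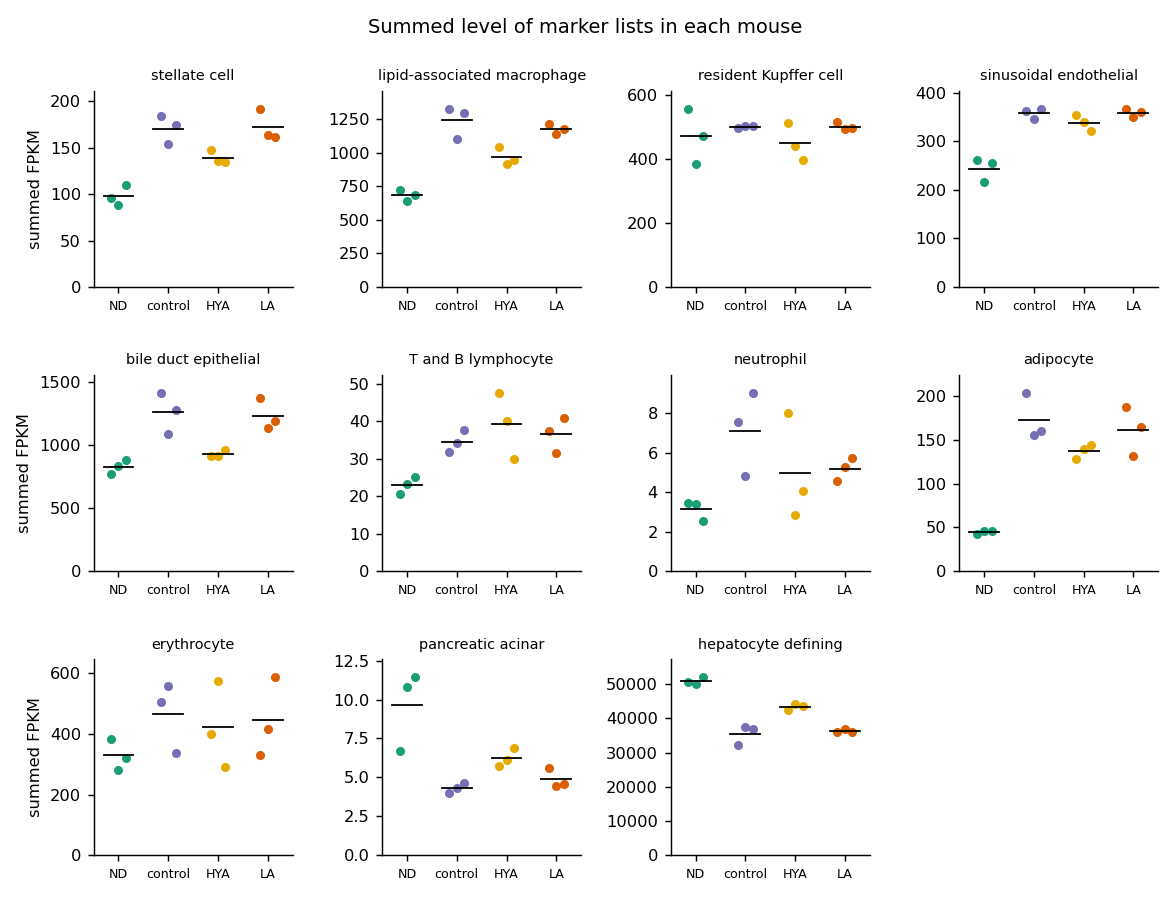
Summed FPKM of each list of cell type markers in the 12 mice, with dots for mice and lines for group means of 3 mice. The stellate, lipid-associated macrophage, endothelial, bile duct, lymphocyte, neutrophil and adipocyte sums of all LA mice lie above all ND mice, the hepatocyte and acinar sums lie below, and the Kupffer and erythrocyte sums overlap. The same holds for sums on the TPM scale, except that all LA mice lie above all ND mice for Kupffer markers there.

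Chemokines, cytokines and their receptors had 13 of 29 tested genes higher and 4 lower (median 0.34 relative to all tested genes). Without the filter they had 19 of 46 higher and 4 lower (median 0.29). Ccl2, which recruits monocytes, was at 1.30, 0.277 and 0.636 FPKM in ND and 4.16, 3.67 and 2.92 FPKM in LA mice. Cxcl13, which attracts B cells, went the other way at 8.41, 4.49 and 5.76 FPKM in ND and 0.204, 0.245 and 0.351 FPKM in LA mice. Neither gene had overlapping groups, and the log2 changes were 1.43 ± 0.30 and -2.48 ± 0.34. Il1rn, the interleukin-1 receptor antagonist, and the chemokine genes Cxcl14 and Ccl6 rose by 1.08, 1.08 and 1.01. Il1b was at 2.45, 1.65 and 3.41 FPKM in ND and 2.41, 2.02 and 2.33 FPKM in LA mice, with overlap and a log2 change of -0.08 that turned to 0.11 on the TPM scale, and it did not pass. Cd86, a costimulatory protein, was at 1.04, 0.722 and 0.988 FPKM in ND and 1.49, 1.38 and 1.67 FPKM in LA mice and rose by 0.39. Tnf was at 0.556, 0.384 and 0.170 FPKM in ND and 0.458, 0.401 and 0.438 FPKM in LA mice. Il6 was at 0, 0 and 0 FPKM in ND and 0.0193, 0 and 0 FPKM in LA mice. Both were below the 1 FPKM rule and were not tested under it.

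Interferon-stimulated genes had 10 of 36 higher and 2 lower (18 and 0 on the TPM scale), and antigen presentation genes of the MHC had 6 of 24 higher and 1 lower (18 and 0 on the TPM scale). Ifi27l2b was at 7.08, 5.36 and 4.73 FPKM in ND and 52.5, 46.04 and 33.2 FPKM in LA mice, and its neighbour Ifi27l2a was at 6.52, 3.40 and 6.73 FPKM in ND and 17.9, 13.3 and 17.1 FPKM in LA mice. All LA mice were above ND in both, and Oasl2 and Ifit2 rose by 0.53 and 0.65. H2-Q10, an MHC class I gene of the liver, was at 493, 474 and 485 FPKM in ND and 723, 717 and 683 FPKM in LA mice. Ctss (cathepsin S), H2-M3 and H2-D1 rose by 0.80, 0.47 and 0.25.

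In the cell cycle list 10 of 23 tested genes rose and 0 fell (18 and 0 on the TPM scale). Only 23 of 36 listed genes passed the filter, and without it 14 of 36 were higher and 0 lower (median 0.39). Ccnd1 (cyclin D1) was at 7.97, 6.20 and 6.05 FPKM in ND and 16.5, 20.8 and 18.5 FPKM in LA mice, with every LA mouse above ND. Cdc20, Rrm2 and Cdkn2c rose by 1.02, 0.61 and 0.48 at levels near 1 FPKM. Of iron and metal genes, 8 of 22 rose and 4 fell (10 and 2 on the TPM scale). The metallothionein gene Mt1 was at 3.75, 2.32 and 5.40 FPKM in ND and 12.2, 9.94 and 11.7 FPKM in LA mice, and Mt2 was at 1.94, 2.14 and 3.41 FPKM in ND and 12.7, 11.2 and 12.4 FPKM in LA mice. Both were higher in each LA mouse. The zinc transporter gene Slc39a5 rose by 1.53 and the transferrin receptor gene Tfr2 changed by -0.60.

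Among genes that are zoned along the liver lobule, the periportal list had 2 of 20 higher and 11 lower (median -0.46 relative to all tested genes), and the pericentral list had 4 of 23 higher and 7 lower (median -0.09), although 5 and 5 pericentral genes were higher and lower on the TPM scale. The difference between the lists was not tested. Etnppl, a periportal phospholyase, was at 30.2, 24.4 and 21.8 FPKM in ND and 4.73, 6.35 and 4.78 FPKM in LA mice. Notum, a Wnt inhibitor of pericentral hepatocytes, was at 17.6, 17.6 and 17.1 FPKM in ND and 7.93, 7.50 and 8.10 FPKM in LA mice. Cyp1a2, a pericentral P450, was at 249, 298 and 286 FPKM in ND and 55.98, 86.1 and 106 FPKM in LA mice. All 3 fell in every LA mouse. Hsd17b13, a lipid droplet protein, and the transporter gene Slc13a3 rose by 0.75 and 0.90, and Cyp27a1, a sterol hydroxylase, changed by -0.76.

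Nuclear receptors had 0 of 34 higher and 9 lower on the deposited scale, against 4 and 2 on the TPM scale, with a median -0.06 relative to all tested genes, so no direction is drawn. Hnf4a, a master factor of hepatocytes, was at 157, 149 and 149 FPKM in ND and 112, 110.0 and 102 FPKM in LA mice, with an antisense neighbour, Hnf4aos, at lower level. The groups did not overlap. Nr3c1 (the glucocorticoid receptor) and Nr6a1 changed by -0.36 and -0.36. Retinoid genes had 4 of 23 higher and 5 lower, and 10 and 2 on the TPM scale, where the balance turns. Cyp26a1, which degrades retinoic acid, was at 31.1, 27.9 and 21.3 FPKM in ND and 0.926, 5.26 and 1.90 FPKM in LA mice, all LA mice below ND. Rdh16 and Bco1 rose by 0.78 and 0.69, and Rdh7 changed by -0.45.

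Genes of endoplasmic reticulum stress and the amino acid response gave 2 higher and 5 lower of 29, against 3 and 2 on the TPM scale. The stress sensor genes Ern1 and Eif2ak3 changed by -0.44 and 0.61, and Herpud1 by -0.65. Of 18 core circadian clock genes only Nr1d1 passed on the deposited scale, at 33.6, 40.1 and 50.4 FPKM in ND and 22.99, 25.7 and 31.1 FPKM in LA mice, and none passed on the TPM scale. Among reference genes 3 of 15 were lower and 0 higher, but 7 were higher and 0 lower on the TPM scale. Rplp0, which the study used to normalise RT-qPCR, was at 209, 210.2 and 226 FPKM in ND and 191, 182 and 184 FPKM in LA mice, with a log2 change of -0.21 ± 0.0516 on the deposited scale that was 0.02 on the TPM scale. Rps18 changed by -0.34 and Eef1a1 by -0.21, which was also 0.02 on the TPM scale.

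Members of further lists higher and lower on the TPM scale were 14 and 0 of 20 for lipid droplet genes, 17 and 2 of 24 for fatty acid uptake, 12 and 1 of 17 for lipogenesis, 9 and 2 of 13 for desaturases and elongases, 28 and 0 of 37 for fatty acid oxidation, 4 and 12 of 28 for bile acids, 4 and 9 of 15 for Cyp2c and Cyp2a, and 2 and 7 of 14 for Cyp2b, Cyp3a and Cyp1a genes. They were 23 and 0 of 26 for injury genes, 13 and 0 of 17 for collagen chains, 20 and 0 of 25 for matrix proteases, inhibitors and crosslinkers, 18 and 1 of 21 for stellate, 10 and 0 of 13 for bile duct, 2 and 11 of 20 for hepatocyte markers, 16 and 1 of 29 for chemokines and cytokines, and 4 and 10 of 20 for periportal genes.

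Some genes named in the text passed between LA and ND only under part of the settings. Col18a1 and Col27a1 are described above and left aside here. The genes Eef1a1, Ephx2, Herpud1, Inhba, Ndufs7, Nr1d1, Nr3c1, Nr6a1, Nutf2, Rplp0, Rps18, Slc40a1 and Wbp11, all lower on the deposited scale, did not pass on the TPM scale. With limma-voom Eef1a1, Herpud1, Ndufs7, Nr1d1, Nutf2, Rplp0, Slc40a1 and Wbp11 did not pass, and with fragments on genes as library size the same genes apart from Ndufs7. Without a filter Alb, Eef1a1, Herpud1, Mir6392 and Ptprc did not pass, and with only the groups compared Eef1a1, Mup16 and Ptprc. When a single LA or ND mouse was left out, Cd5l, Cd86, Eef1a1, H2-D1, Herpud1, Ighm, Mir6392, Nr1d1, Ptprc and Tgfb1 did not pass in at least 1 of the 6 fits. The reverse also occurred among named genes that did not pass on the deposited scale. Of these, 4 passed on the TPM scale, 3 with fragments on genes as library size and 2 with limma-voom. Only 1 passed with only the groups compared, and 1 without LA mouse 3.

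The spans of some further named genes overlap that of another expressed gene, so part of the fragments counted for them may come from that gene. These are Acaca, Ahsg, Ccnd1, Cdc20, Cpb2, Crat, Cth, Cyp2b13, Fads1, Fdps, Inhbc, Lipc, Nr1d1, Plg, Plvap, Rps18, Serpina3k, Serpind1, Slc39a5, Srebf1 and Ttc39c.

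The LA mice differed among themselves less than from ND. The distance between mice over all tested genes, as the root of summed squared differences in log2(FPKM + 1), was 24.47 to 28.63 between LA mice, 27.28 to 28.04 between ND mice and 49.8 to 57.23 between an LA and an ND mouse. The median SD over genes was 0.0884 in LA and 0.0994 in ND on the log2 scale. LA mouse 1 stood farthest from ND in many genes, as it was the highest LA mouse in 142 of the 236 higher genes (26 for mouse 2, 68 for mouse 3) and the lowest in 88 of the 151 lower genes (22 for mouse 2, 41 for mouse 3). Without LA mouse 1, 211 genes were higher and 135 lower past both thresholds.

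Compared directly with the control mice on the same high-fat diet without LA, no gene passed an adjusted p of 0.05 in limma, and 294 of 11083 genes (2.65%) had an unadjusted p under 0.05, with 291 by limma-voom on recovered fragments. The lowest adjusted p was 0.341 (limma, Benjamini-Hochberg). Over the 387 genes that differed between LA and ND, the log2 difference between LA and control ranged from -0.80 to 0.93, with medians of -0.04 over the higher and 0.04 over the lower genes. For 344 of the 387 the 95% interval of the difference lay within 1 log2 unit of 0, and the median half-width of the interval was 0.37. A missing call does not show that the groups were alike, and the intervals give the differences that these 3 mice per group leave possible.

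Since LA and control share the ND mice, their changes against ND are given side by side and not as independent support. Apoa4 was at 3946, 3121 and 3996 FPKM in control mice, where its log2 change against ND was 5.99, beside 5.73 in LA. The direct difference of LA from control was -0.26 (95% interval -0.56 to 0.04). Serpina1e was at 22.5, 21.5 and 43.01 FPKM in control mice, and the difference of LA from control was -0.25 (95% interval -0.87 to 0.37). Col1a1 was at 13.2, 7.72 and 11.1 FPKM in control mice, with a difference of -0.20 (95% interval -0.67 to 0.27). For Plin2 the control mice were at 372, 343 and 354 FPKM and the difference was -0.05 (95% interval -0.18 to 0.09). Fads2, the enzyme that uses linoleic acid, was at 1118, 1284 and 839 FPKM in control mice with a difference of -0.22 (95% interval -0.59 to 0.15). The control values of each of these genes overlapped those of the LA mice.

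The 5 genes with the lowest unadjusted p between LA and control were lower in every LA mouse than in every control mouse. Nutf2, a nuclear import factor, was at 6.95, 7.57 and 8.40 FPKM in control and 5.19, 5.58 and 5.03 FPKM in LA mice, with a difference of -0.46 (95% interval -0.61 to -0.31). Eif4ebp1, a repressor of translation, was at 19.6, 18.3 and 17.2 FPKM in control and 14.8, 13.8 and 15.2 FPKM in LA mice, with a difference of -0.31 (95% interval -0.45 to -0.17). The splicing factor gene Wbp11 differed by -0.23 (95% interval -0.34 to -0.13), and the unnamed genes Gm5873 and 2410006H16Rik by -0.60 (95% interval -0.83 to -0.38) and -0.47 (95% interval -0.65 to -0.29). None of the 5 passed the adjusted threshold.

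**Figure D5:**
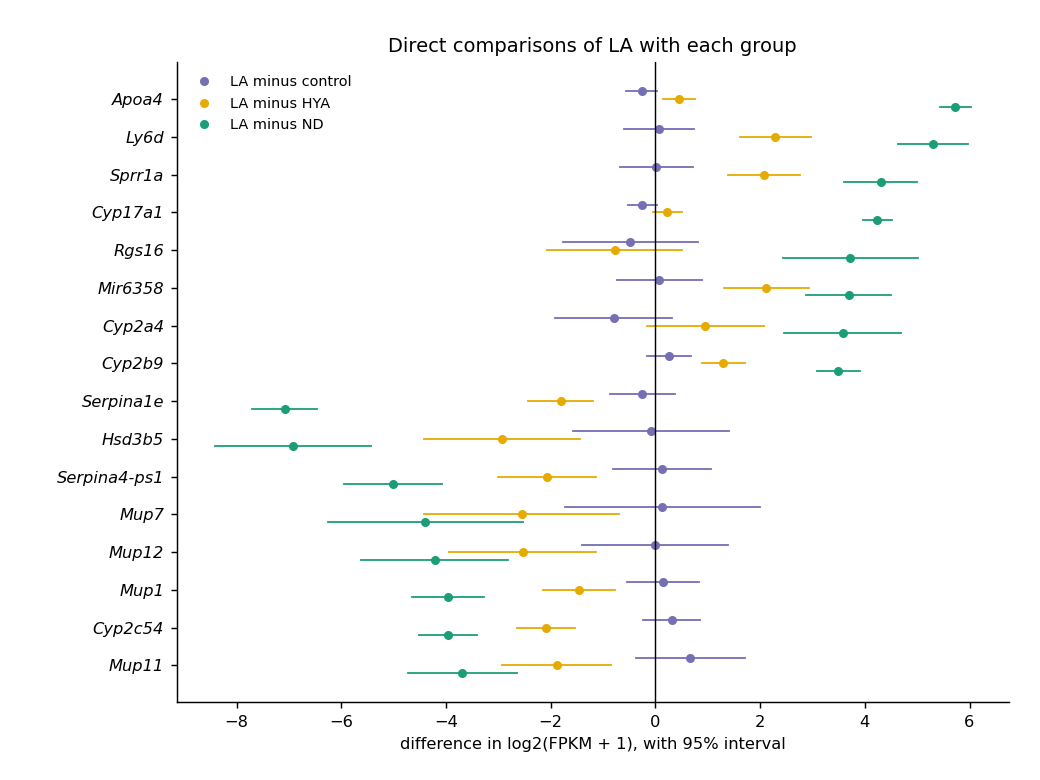
Difference in log2(FPKM + 1) between LA and each other group for the 8 largest increases and 8 largest decreases against ND once genes known only by a clone or model number are set aside (Gm10680 is 1 of these), with 95% intervals from the limma fit of 12 mice (3 per group). The intervals against control all include 0, those against ND exclude it for every gene, and those against HYA include 0 for Cyp17a1, Rgs16 and Cyp2a4 and exclude it for the other genes shown.

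HYA differs from LA in 1 place, where a double bond has been hydrated to a hydroxyl group, and both were given at 1% of the high-fat diet for the same time. Between LA and HYA 12 of 11083 genes (0.108%) passed both thresholds in limma, 9 higher and 3 lower in LA, and 54 (0.487%) passed by adjusted p alone. The 54 became 0 without LA mouse 1, LA mouse 2 or HYA mouse 2 and 0 without a filter, but 165 on the TPM scale, 231 with limma-voom and 258 with the replicate block. The 12 also rest on single libraries, as the count was 0 without LA mouse 1, without LA mouse 2 or without HYA mouse 2, 4 without LA mouse 3, 5 without HYA mouse 3 and 8 without HYA mouse 1. It was also 0 with every detected gene tested, and 27 on the TPM scale. Over the 387 genes that differed between LA and ND, the median log2 difference of LA from HYA was 0.41 over the higher and -0.54 over the lower genes. The same LA mice served to choose these genes, which favours differences from HYA in these directions. What the medians would be without a difference from HYA was not computed.

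Ly6d was at 18.2, 13.1 and 21.4 FPKM in HYA mice against 115, 83.3 and 71.7 FPKM in LA mice. All LA mice were above all HYA mice, by 2.29 (95% interval 1.62 to 2.97) on the log2 scale (limma, Benjamini-Hochberg adjusted p = 0.0268). Cyp2c54 was at 43.1, 62.2 and 47.98 FPKM in HYA mice and 10.2, 10.6 and 12.7 FPKM in LA mice, a difference of -2.09 (95% interval -2.64 to -1.54), with LA lower throughout (adjusted p = 0.0183, limma, Benjamini-Hochberg). Ces3b, a carboxylesterase, was at 197, 194 and 205 FPKM in ND, 127, 119.8 and 112 FPKM in HYA and 46.9, 55.7 and 44.3 FPKM in LA mice, and LA differed from HYA by -1.28 (95% interval -1.62 to -0.93). Its HYA values lay between those of ND and LA. For Serpina1e, also lower in LA, the difference from HYA was -1.81 (95% interval -2.43 to -1.19), where the HYA mice were at 59.7, 90.98 and 106 FPKM.

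The other genes past both thresholds were higher in LA. Sprr1a differed by 2.07 (95% interval 1.38 to 2.77) and Mir6358 by 2.12 (95% interval 1.31 to 2.93). Cyp2b9 differed by 1.30 (95% interval 0.88 to 1.71), Cyp2b13 by 1.38 (95% interval 0.93 to 1.82), S100a11 by 1.06 (95% interval 0.71 to 1.41) and Anxa2 by 1.01 (95% interval 0.62 to 1.41). Ifi27l2b differed by 1.08 (95% interval 0.71 to 1.45), and Mtmr11, a myotubularin relative chosen after its values were seen, by 1.07 ± 0.20 (SE). C8b differed by -0.94 (95% interval -1.18 to -0.70) and Gstm3 by 0.96 (95% interval 0.70 to 1.22), both passing by adjusted p alone, which no gene did without LA mouse 1, LA mouse 2 or HYA mouse 2.

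Col1a1, Col3a1 and Acta2 did not pass the adjusted threshold between LA and HYA, although their 95% intervals excluded 0. Col1a1 was at 4.94, 3.08 and 5.01 FPKM in HYA mice, below each LA mouse, and LA differed by 0.92 (95% interval 0.46 to 1.39), with a Benjamini-Hochberg adjusted p of 0.0715 in limma. Col3a1 was at 10.7, 8.31 and 9.77 FPKM in HYA mice with a difference of 0.73 (95% interval 0.38 to 1.08), and Acta2 was at 2.06, 2.32 and 1.84 FPKM with a difference of 0.53 (95% interval 0.11 to 0.96). In the same RT-qPCR panel, the intervals of Col1a2 (0.29 to 0.92) and Timp1 (0.15 to 1.39) also excluded 0. Those of Tgfb1 (-0.23 to 0.24), Ccl2 (-0.18 to 1.14), Cd86 (-0.15 to 0.32) and Il1b (-0.29 to 0.66) included 0. Among lipid genes the difference was 0.52 (95% interval 0.27 to 0.77) for Scd1, 0.47 (95% interval 0.26 to 0.68) for Acaca and 0.20 (95% interval 0.06 to 0.33) for Plin2, with all HYA mice below all LA mice in each, and 0.32 (95% interval -0.10 to 0.74) for Fasn and -0.18 (95% interval -0.55 to 0.19) for Fads2, and none of these passed the adjusted threshold. The intervals of Fasn and Fads2 include 0 and that of Acta2 does not, although LA mouse 3 lay within the HYA range of Acta2.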

How the data were processed

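Liver RNA-seq of 12 mice in 4 groups of 3 was analysed. Per the submitters' processing notes, the authors used fastp, HISAT2 2.0.5 and featureCounts 1.5.0-p3 with build GRCm38, and deposited gene FPKM values, which are normalised for gene length and depth. The methods of the study name TPM as the unit of expression, which the deposited values are not. How libraries were scaled and whether counting used strand are not given in the sources used here. Groups came from the sample titles. The values were taken to log2(FPKM + 1), kept where a gene averaged 1 FPKM or more, and tested with limma 3.58.1 under R 4.3.3 in 1 fit of all 12 mice without replicate block, with a trended prior variance and Benjamini-Hochberg adjustment over every gene kept. Tests took both directions into account. Thresholds were an adjusted p under 0.05 and, where stated, a log2 change over 1. The procedure was also run on simulated data with known changes, in which the same setting of spread served every gene. Such data are simpler than the libraries here, so the run checks the code and not the calls. Whole fragments were recovered from FPKM and gene length, 100% of values being whole within 0.1, and gave 17169064 to 20950700 fragments on genes in ND and LA mice. Intervals are 95% limma intervals. Named genes were the 8 largest increases and 8 largest decreases known by more than a clone or model number and without overlap of LA and ND, up to 4 members of each list with the lowest p, the study's RT-qPCR panel, the 5 lowest p against control and against HYA, and the most abundant member of each cell type list, with exceptions said in the text, and some genes that the rule takes are not reported here. Named genes with a span that overlaps another expressed gene are pointed out in the text. The members and the 52 gene lists were chosen with earlier results of these data known. List medians and counts are descriptions without a test. Promoter windows are from RefSeq. Alternatives were another pseudocount (0.1), other filters (none, 5 FPKM, the mean of the 6 mice compared), other scalings, a fit of only the groups compared, the replicate block, limma-voom on recovered fragments, no fold threshold, and leaving out each mouse.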

Additional observations from a re-analysis of the deposited data

How the results depend on the processing

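Between LA and ND, the 236 higher genes became 396 with a pseudocount of 0.1, 140 with a filter at 5 FPKM, 625 on the TPM scale (496 on the same 11083 genes, chosen after seeing the data), 609 with limma-voom on recovered fragments and 1600 without the fold threshold, and with a filter on the 6 LA and ND mice, also chosen after seeing the data, 232. The 151 lower genes became 1845 without the fold threshold and numbered 114 to 194 under the other settings. Median-ratio size factors gave 235 higher and 153 lower genes. Leaving out each mouse gave 211 to 247 higher and 135 to 164 lower genes, and none of the 387 genes past both thresholds changed sign under any setting run in which it was tested. Fewer genes tested account for the lower number at 5 FPKM, since all 140 higher and 113 lower genes still tested there were kept. Between LA and control the number past both thresholds was 0 under every setting run, with 1 gene past the adjusted p alone without a filter. Between LA and HYA the 12 genes became 0 without a filter, 20 at 5 FPKM, 33 on the TPM scale (27 on the same genes), 25 with only the groups compared, 33 with limma-voom and 54 without the fold threshold, and 0 to 8 with a mouse left out. The cause of these differences was not tested. With the replicate block, the counts were 234 higher and 152 lower between LA and ND, 0 between LA and control and 29 between LA and HYA. The same-numbered LA and ND mice had correlations of 0.01, 0.052 and -0.002 of their deviations from the group means, and same-numbered LA and control mice 0.002, 0.029 and -0.396. For LA and HYA mice they were 0.218, -0.003 and 0.294, beside -0.289 to 0.083 between different numbers. Whether equal numbers mark mice that belong together is not given, and why the block adds genes between LA and HYA was not tested. Log2 changes of opposite sign between LA and ND were seen for Clu (0.19 on the TPM scale with either set of genes, 0.14 with limma-voom, 0.13 with fragments on genes as library size, -0.11 to 0.01 with a mouse left out), Il1b (0.11, 0.07, 0.05 and -0.26 to 0.10 in the same order), Eef1a1 (0.02, TPM) and Rplp0 (0.02, TPM), and for Mup20 the values with a mouse left out ran from -0.10 to 0.15. The cause was not tested. Fragments per library limit low genes, of which those below the 1 FPKM rule were not tested under it.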
